A study of Mus musculus with 2 samples.

Results

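The genes described here restrain signalling from the T cell receptor: 3 ubiquitin ligases of T cell anergy (Rnf128, Cblb and Itch), the ligase adaptor Ndfip1, the diacylglycerol kinases Dgka and Dgkz, the stress-response gene Ndrg1, and the inhibitory receptors Pdcd1, Btla and Cd5. They were chosen by name as 10 of the 18193 genes measured, and every probe set that the array annotation pairs with one of these symbols was taken, which gave 23 of 34945 probe sets. The study set 1 array of Hopx-sufficient cells against 1 array of Hopx-/- cells, both from mouse regulatory T cells induced in vivo through dendritic cells after immunization and sorted on CD25 and Foxp3. Hopx is a small transcription cofactor with a homeodomain that does not bind DNA. Strain, age, the Hopx allele, the antigen and the number of animals behind each array are not given in the sources used here. Hopx itself was 35.6-fold lower on the Hopx-/- array, with its 2 probe sets at -4.87 and -5.44, the direction its label calls for.

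Anergy is a lasting unresponsiveness that a T cell enters when its receptor is engaged without costimulation. Ubiquitin ligases then mark parts of the signalling machinery for removal, diacylglycerol kinases use up the lipid messenger that activates Ras and protein kinase C, and inhibitory receptors bring phosphatases to the membrane. Regulatory T cells are themselves hyporesponsive to receptor stimulation in culture and carry several of these genes at high levels.

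As deposited, each probe set has the same number with opposite signs on the 2 arrays: its mean was set to 0, and its signal level is lost. Values below are log2 differences, Hopx-/- minus Hopx-sufficient, after subtraction of the median over all probe sets with 1 gene symbol, which was 0.0075. Base 2 was assumed for the logarithm. A gene's value is the mean over its probe sets. A difference of at least 1.2-fold, 0.26 on the log2 scale, served as a rule of size. With 1 array per genotype there is no replicate error and no test, and spread is given between probe sets of a gene, whose standard deviation was 0.18 over the 9010 genes with at least 2 probe sets. Genotype cannot be told apart from any other difference between the 2 samples, and fewer cells of a type cannot be told apart from less RNA per cell.

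The sequences upstream of 5 of these genes are shown because they were searched for 3 transcription factor sites. These were the core recognised by NFAT (GGAAA), the AP-1 site (TGANTCA) and the Egr site (GCGNGGGCG), each searched on both strands. NFAT and Egr genes belong to the list of anergy transcription factors used below, and AP-1 genes do not. RefSeq start-site windows (GRCm38.p6) were found for 7 of the 10 genes, and the 5 genes with a single window are printed, as the 250 bases before the start, 5′ to 3′ on the strand of the gene, with every match in capitals. Rnf128 and Cd5 stood among the more different genes below, Btla and Cblb were the least different, and Pdcd1 lay between them.
Rnf128, chrX:139610370-139610619, plus strand: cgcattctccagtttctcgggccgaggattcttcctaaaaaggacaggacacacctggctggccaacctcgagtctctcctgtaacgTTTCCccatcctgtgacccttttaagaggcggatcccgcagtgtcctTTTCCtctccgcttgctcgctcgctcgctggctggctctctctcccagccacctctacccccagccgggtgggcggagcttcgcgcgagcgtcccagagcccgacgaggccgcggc
Cd5, chr19:10738975-10739224, minus strand: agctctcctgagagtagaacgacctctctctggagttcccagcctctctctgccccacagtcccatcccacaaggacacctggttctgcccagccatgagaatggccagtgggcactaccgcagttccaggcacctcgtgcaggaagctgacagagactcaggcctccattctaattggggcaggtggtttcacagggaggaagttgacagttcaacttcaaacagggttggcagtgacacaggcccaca
Pdcd1, chr1:94052554-94052803, minus strand: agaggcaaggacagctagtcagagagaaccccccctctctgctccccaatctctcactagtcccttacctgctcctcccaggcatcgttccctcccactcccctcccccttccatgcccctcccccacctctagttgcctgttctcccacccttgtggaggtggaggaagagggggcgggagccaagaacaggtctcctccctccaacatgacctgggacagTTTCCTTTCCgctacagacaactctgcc
Btla, chr16:45224087-45224336, plus strand: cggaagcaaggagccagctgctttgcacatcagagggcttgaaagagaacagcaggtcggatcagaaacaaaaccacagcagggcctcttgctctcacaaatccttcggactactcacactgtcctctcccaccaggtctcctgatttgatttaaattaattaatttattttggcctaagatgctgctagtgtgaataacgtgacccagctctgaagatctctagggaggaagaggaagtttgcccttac
Cblb, chr16:52031299-52031548, plus strand: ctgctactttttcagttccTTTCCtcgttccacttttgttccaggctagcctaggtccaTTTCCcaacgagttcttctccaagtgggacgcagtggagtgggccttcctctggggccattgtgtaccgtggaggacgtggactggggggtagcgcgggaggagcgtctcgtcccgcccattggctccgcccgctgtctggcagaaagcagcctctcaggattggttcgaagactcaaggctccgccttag
All capitals in these sequences are NFAT cores. Rnf128, Cblb and Pdcd1 each held 2, those of Pdcd1 lying next to each other, and Cd5 and Btla held 0. No AP-1 or Egr match was found in any of the 11 windows of the 7 genes, and no matches of different motifs overlapped. Of 32851 such windows, 55.6% held an NFAT core, 6.75% an AP-1 match and 4.7% an Egr match, beside 7 of the 11 windows (63.6%) with an NFAT core here. The genes with 2 cores and the genes with 0 cores each included a larger and a smaller difference.

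All 10 genes were higher on the Hopx-/- array, against 50.1% of all genes, and 5 of them were at least 1.2-fold higher, against 7.1% of all genes. None was 1.2-fold lower, which 10.1% of all genes were, and none reached 1.5-fold, which 0.297% of all genes did in the higher and 1.31% in the lower direction. Their median was 0.26, against 0.00078 over all genes, and they ran from 0.06 to 0.42. Of the 23 probe sets 20 were higher and 3 lower, and 11 were at least 1.2-fold higher, against 50% and 9.99% of all probe sets. Of the 6 genes with several probe sets 4 had every probe set higher, which 23.4% of such genes had over the whole array. The values of 7 of the 10 genes were larger than the spread between probe sets of a gene (0.18), which is not an error between arrays. The standard deviation over all genes was 0.21, so values past 0.18 were not rare on this array. The same 7 genes lay above the 90th percentile of all genes. The lowest of them was Pdcd1, and 1741 of the 18193 genes were as high or higher. How many of all genes passed 0.18 was not counted. In order, the genes stood as Rnf128, Dgka, Ndfip1, Cd5, Itch, Dgkz, Pdcd1, Ndrg1, Btla and Cblb. No neighbours in this order lay further apart than 0.13, less than the spread between probe sets.

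**Figure D1:**
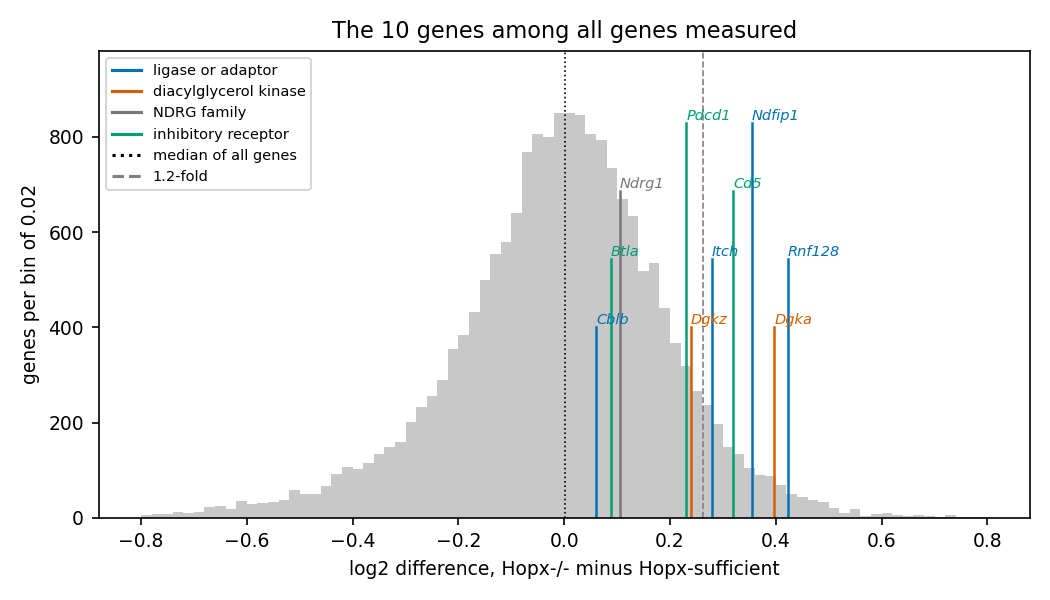
Histogram of the log2 differences (Hopx-/- minus Hopx-sufficient, x axis) of all genes measured, in bins of 0.02 (y axis: genes per bin), with a line for each of the 10 genes. The heights of the lines only keep the names apart, the 70 genes beyond 0.8 on either side are not drawn, and all 10 genes lie to the right of 0.

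The ubiquitin ligases and their adaptor had a median of 0.32, and 3 of the 4 were at least 1.2-fold higher. Rnf128 encodes GRAIL, a RING ligase of endosomal membranes that is induced in anergic CD4 T cells. Its 2 probe sets averaged -0.22 on the Hopx-sufficient and 0.22 on the Hopx-/- array as deposited. The centred difference was 0.42, or 1.34-fold, the largest of the 10, and 264 of the 18193 genes were as high or higher. The probe sets gave 0.39 and 0.46 and so lay close together.

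Ndfip1 encodes a membrane adaptor that recruits and activates Itch and other ligases of the Nedd4 family. Its mean deposited values were -0.18 on the Hopx-sufficient and 0.18 on the Hopx-/- array. It was 1.28-fold higher (0.36), with its 3 probe sets at 0.23, 0.37 and 0.46, and 545 genes were as high or higher. All of its probe sets were on the same side, the lowest being the only one with a suffix that marks several transcripts of a gene.

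Itch encodes a HECT ligase of the Nedd4 family that acts on JunB, and its loss leads to inflammation in mice. Its deposited values averaged -0.14 and 0.14, in the order Hopx-sufficient and Hopx-/-. The difference was 0.28, or 1.21-fold, just past the rule of size. Its 4 probe sets fell into an unequal pattern. Probe set 1415769_at differed by 0.08, whereas the other 3 lay between 0.32 and 0.37 with a mean of 0.35. Whether these probe sets read different transcripts was not tested.

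Cblb encodes a RING ligase through which T cells depend on CD28 costimulation. It differed least of the 10, with mean deposited values of -0.03 and 0.03 and a difference of 0.06, or 1.04-fold. Its 3 probe sets stood at -0.07, 0.08 and 0.17 and lay on both sides of 0. Over all genes, 6605 were as high or higher. Rnf128 exceeded Cblb by 0.36, and both probe sets of Rnf128 (0.39 and 0.46) lay above all those of Cblb.

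**Figure D2:**
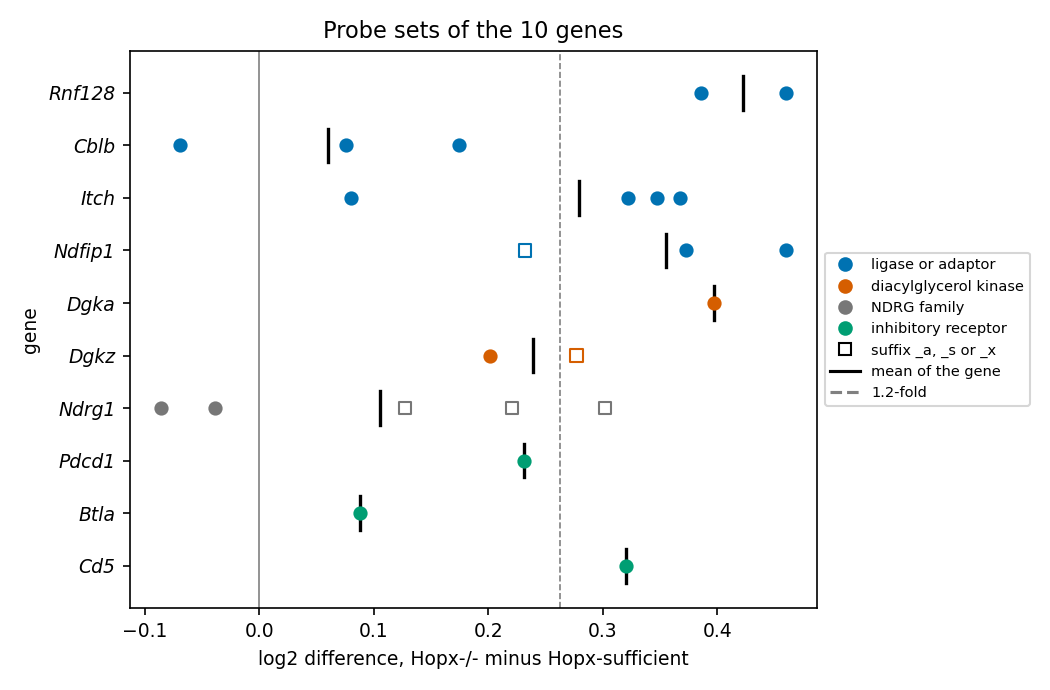
Each point is 1 probe set (x axis: log2 difference, Hopx-/- minus Hopx-sufficient) of the 10 genes (y axis), coloured by the role of the gene, with open squares for probe sets whose suffix marks shared sequence or several transcripts. Vertical bars are gene means and the dashed line is 1.2-fold; 20 of the 23 points lie to the right of 0, and the 3 on its left belong to Cblb and Ndrg1.

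The diacylglycerol kinases convert diacylglycerol to phosphatidic acid and so end the activation of Ras through RasGRP1 and of protein kinase C theta. Dgka, whose product is a calcium-regulated kinase abundant in resting and anergic T cells, was measured by 1 probe set. It stood at -0.20 on the Hopx-sufficient and at 0.20 on the Hopx-/- array as deposited. Its difference of 0.40, or 1.32-fold, was the next largest after that of Rnf128, and 353 genes were as high or higher. Dgkz, which encodes the isoform that acts at the immune synapse, averaged -0.12 and 0.12 over its 2 probe sets. It was 1.18-fold higher (0.24), with probe sets at 0.20 and 0.28, and so fell short of the rule of size. The 2 kinases differed from each other by 0.16, less than the spread between probe sets.

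Ndrg1 encodes a cytosolic protein induced by stress and hypoxia that has been described as a factor of T cell anergy. Its 5 probe sets disagreed in direction. The 2 without a suffix gave -0.09 and -0.04, while the 3 with a suffix gave 0.13, 0.22 and 0.30. The mean over all 5 was 0.11, or 1.08-fold, from mean deposited values of -0.06 and 0.06. With the suffix-marked probe sets left out the gene stood at -0.07, so its direction depended on which probe sets were counted. An _s or _x suffix marks probes that can also bind other transcripts, and whether they did so here was not tested.

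The inhibitory receptors had a median of 0.23, and 1 of the 3 was at least 1.2-fold higher. Each was measured by 1 probe set. Cd5, a scavenger receptor family protein that dampens receptor signalling and whose level follows the strength of that signal, stood at -0.16 on the Hopx-sufficient and 0.16 on the Hopx-/- array. Its difference was 0.32, or 1.25-fold. Pdcd1, which encodes the receptor PD-1, stood at -0.12 and 0.12, a difference of 0.23 or 1.17-fold. Btla, which encodes the receptor for the TNF receptor family protein HVEM, stood at -0.05 and 0.05, a difference of 0.09 or 1.06-fold. All were on the same side, and Cd5 exceeded Btla by 0.23. With 1 probe set each, the spread between probe sets of these genes cannot be given.

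The genes around these 10 were taken from lists, some of which share members, and were read against the same shares. Of all genes, 50.1% were higher, 7.1% at least 1.2-fold higher and 10.1% at least 1.2-fold lower. Further ubiquitin ligases, adaptors and deubiquitinases linked to T cell unresponsiveness did not lean to either side: 11 of 24 were higher and 13 lower, 2 were at least 1.2-fold higher and 1 lower, and the median was -0.0038. The most different were Peli1, a ligase that restrains NF-kB in T cells (0.41, with 5 probe sets between 0.36 and 0.47), Trim28, a corepressor with a RING domain (-0.34), and Rnf125, a ligase of T cell activation (0.30).

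Of the other diacylglycerol kinases 6 were measured, 4 were higher and 2 lower, and none passed 1.2-fold (median 0.10). Dgkd (0.16), Dgkq (0.15) and Dgki (0.13) differed most. Among 12 genes whose products make or read diacylglycerol, 7 were higher and 5 lower, 2 of them at least 1.2-fold higher and 0 lower (median 0.03). The protein kinase C genes Prkch (0.43) and Prkcq (0.32) were the most different. Rasgrp1, the exchange factor for Ras that diacylglycerol recruits, had a mean of 0.24 over 4 probe sets that ran from -0.17 to 0.60. The other NDRG family genes were Ndrg2 (0.37, 1 probe set), Ndrg3 (0.37, probe sets at 0.35 and 0.39) and Ndrg4 (0.03), and 2 of the 3 were at least 1.2-fold higher.

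Other inhibitory receptors were higher in 12 of 16 measured genes, 6 at least 1.2-fold higher and 1 lower, with a median of 0.14. The most different were Pecam1 (0.43), an adhesion receptor also known from endothelium and myeloid cells, Cd96 (0.41), a receptor of T and NK cells, and Cd200r1 (0.38), the receptor for CD200. Ctla4, which competes with CD28 for its ligands, and Cd72 each differed by 0.33. The 4 lower members were Cd22 (-0.29), Lag3 (-0.23), Cd160 (-0.19, with probe sets from -0.47 to 0.24) and Ceacam1 (-0.04). Of these only Cd22, which is also in the B cell marker list below, was at least 1.2-fold lower. Ligands of such receptors went both ways, with 7 of 12 higher and a median of 0.04. Lgals3, which encodes galectin-3 and is abundant in macrophages, differed by 0.38, Cd274, a PD-1 ligand, by -0.29, and Tnfrsf14, which encodes HVEM, by 0.25. Pdcd1lg2, also a PD-1 ligand, differed by -0.21. Pdcd1 thus stood on the opposite side of 0 from both of its ligands. Btla stood on the same side as Tnfrsf14, but only at 0.09 and from 1 probe set.

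Phosphatases, kinases and adaptors that inhibitory receptors engage were higher in 10 of 14 genes, 4 of them at least 1.2-fold higher and 0 lower (median 0.14). Ptpn22, a phosphatase that opposes the kinase Lck, differed by 0.48, the Ras GTPase-activating gene Rasa1 by 0.42 and Ubash3b, a phosphatase of the UBASH3 family, by 0.31. Known substrates of the ligases were higher in 16 of 18 genes, 5 at least 1.2-fold higher and 0 lower (median 0.21). Prkcq (0.32), Bcl10, an adaptor of NF-kB signalling (0.31), and Cd247, the zeta chain of the T cell receptor complex (0.30), differed most. The probe sets of Bcl10 ran from 0.19 to 0.62 and those of Cd247 from 0.16 to 0.53. Transcription factors of the anergy programme were higher in 10 of 14 genes, 2 at least 1.2-fold higher and 0 lower (median 0.13). The most different were Egr2 (0.39, probe sets at 0.33 and 0.45), a factor that induces ligases in anergic cells, Tox and Tob1. Tox (0.33) had 3 probe sets from 0.05 to 0.54. Tob1 (0.25), an antiproliferative gene of resting T cells, had 2 probe sets, at 0.09 and 0.41. The 4 lower ones were Nr4a3 (-0.16), Nr4a2 (-0.13), Nr4a1 (-0.08) and Nfatc2 (-0.06).

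**Figure D3:**
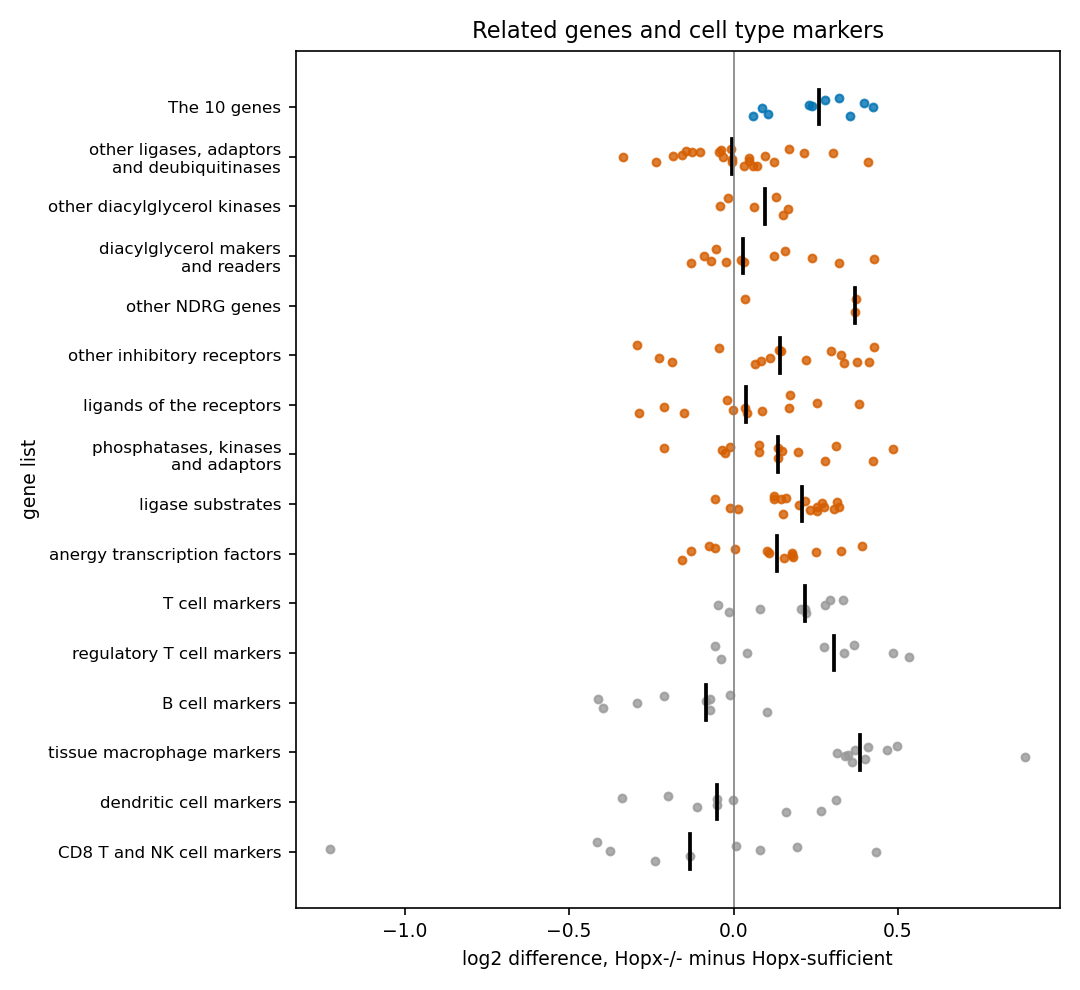
Points are genes (x axis: log2 difference, Hopx-/- minus Hopx-sufficient) of the 10 genes in blue, of 9 related lists in orange and of 6 marker lists in grey (y axis), and black bars are list medians. The median of the 10 genes is 0.26, that of the other ligases is -0.0038, and the tissue macrophage markers lie furthest to the right at a median of 0.38.

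Of 6 marker lists for cells that the sort could hold, those of T cells, regulatory T cells and tissue macrophages had medians above 0, as these genes had, and the other 3 had medians below 0. Their part in the differences was not tested. For comparison, 50.1% of all genes were higher, 7.1% at least 1.2-fold higher and 10.1% at least 1.2-fold lower. Of 9 measured T cell markers 7 were higher and 3 at least 1.2-fold higher (median 0.22), with Cd3g at 0.28, Cd3d and Cd3e at 0.22 each, and Cd4 at -0.01. Of 8 regulatory T cell markers 6 were higher and 5 at least 1.2-fold higher (median 0.31), led by Nrp1 (0.53) and Gpr83 (0.49), with Foxp3 at 0.28 and Il2ra, which encodes CD25, at -0.06; the products of both were used in the sort. The medians of both lists were thus close to that of the 10 genes. All 10 tissue macrophage markers were at least 1.2-fold higher (0.31 to 0.89). B cell markers bear on Btla, which B cells also carry, and on Cd5, which only some B cells carry. These markers were higher in 1 of 9 genes, with 0 at least 1.2-fold higher and 3 at least 1.2-fold lower (median -0.08). Dendritic cell markers were higher in 3 of 9 genes, with 2 at least 1.2-fold higher and 1 lower (median -0.05). CD8 T and NK cell markers were higher in 4 of 9 genes, with 1 at least 1.2-fold higher and 3 lower (median -0.13). Among the latter, Gzma, which encodes granzyme A, differed by -1.23, the largest difference of any marker in the 6 lists. The summed level of a marker list, and whether any marker was undetected, cannot be read from values that hold no levels.

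The 2 kinds of spike-in controls differed. The 18 probe sets of hybridization spike-ins ranged from -0.22 to 0.0074, with a median of -0.12, and all 10 gene values lay above the highest of them. That highest value was nearly no difference, and 50.1% of all genes were higher on the Hopx-/- array. The 27 probe sets of poly-A spike-ins ranged more widely, from -0.17 to 0.78 with a median of 0.03, a range that holds all 10 gene values.

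The values were recomputed under other choices of processing, and 9 of the 10 genes stayed above 0 under each of them. The exception was Ndrg1, as given above. Rnf128 ran from 0.42 to 0.61 and Dgka from 0.39 to 0.57, the highest values being those for natural logarithms. The lowest values of the 5 genes past 1.2-fold were 0.42 (Rnf128), 0.39 (Dgka), 0.35 (Ndfip1), 0.31 (Cd5) and 0.27 (Itch), all past that size. Much of this was fixed beforehand. Natural logs multiply every value by 1.44, and leaving out the centring shifts every value by 0.0075. Dgka and Cd5 have 1 probe set each, so choices between probe sets could change only their centring.

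**Figure D4:**
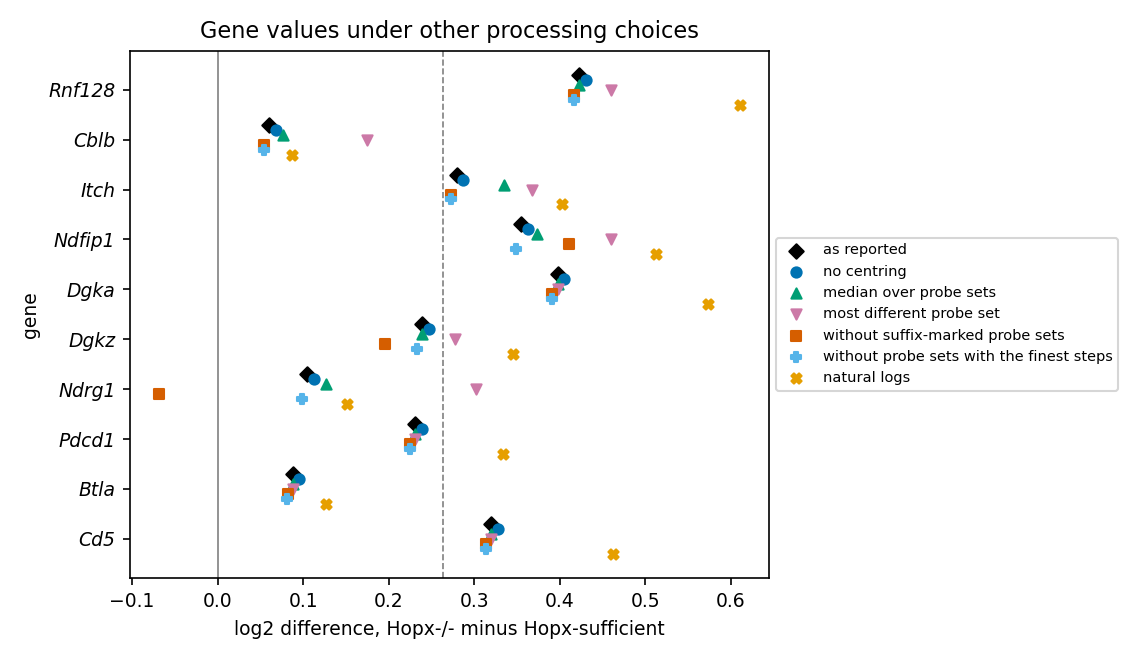
Values of the 10 genes (y axis) as log2 differences, Hopx-/- minus Hopx-sufficient (x axis), as reported and under 6 other choices of processing, 1 symbol for each. Ndrg1 without suffix-marked probe sets, at -0.07, is the only point to the left of 0, and the dashed line is 1.2-fold.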

How the data were processed

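Total RNA from 2 samples of sorted mouse T cells was biotin-labelled and hybridised to 1-colour Affymetrix 3′ arrays, 1 array per genotype, and each sample took its group from its title. The authors deposited log2-type values for 45101 probe sets whose 2 columns are opposite in sign and cancel to within 1e-06, so every probe set had been given a mean of 0. The log base, summarisation and normalization are not given in the sources used here. The number of arrays limits the precision.

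Gene symbols came from the 2016 platform annotation and were brought up to date with a GRCm38.p6 gene table, which held 34741 of the 34945 IDs of probe sets with 1 symbol. Gene values used neither the 932 probe sets with more than 1 symbol, nor the 9160 without a symbol, nor the 64 controls. The median was subtracted from the differences (Hopx-/- minus Hopx-sufficient), which were then averaged by gene. No filter on signal was possible. The named genes are the 10 members, the 3 most different genes of each related list, Hopx, and the cell type markers. Further members are named from the lists of other inhibitory receptors, of ligands of the receptors and of anergy transcription factors. Members, lists and the 1.2-fold rule of size were chosen with earlier results of these data known, so their direction is not independent evidence. Promoter windows and their letters came from RefSeq. The averaging was tested on simulated data. Alternatives were no centring, a median over probe sets or the probe set that differed most in place of the mean, suffix-marked probe sets (_a, _s, _x) left out, removal of the 4165 probe sets whose values have the finest steps, natural logs, and 1.5-fold and 2-fold as rules of size. Python 3.11.15, numpy 2.4.6, pandas 2.3.3 and matplotlib 3.10.9 were used.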

Additional observations from a re-analysis of the deposited data

How the results depend on the processing

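Of 134 recomputed values 130 moved by less than the spread between probe sets of a gene (0.18) or, for counts, by less than 1.5 times, and 4 moved further. The count of genes at least 1.2-fold higher, 5 as reported, was 0 with 1.5-fold and 0 with 2-fold as the rule, which 0.297% and 0.011% of all genes passed in that direction. It was 7 with the most different probe set for each gene and 7 with natural logs, under which 15.1% and 14.7% of all genes passed, and 5 under the other choices. The median of the 10 genes ran from 0.25 to 0.37. Rnf128 moved to 0.61 with natural logs, and Ndrg1 to 0.30 with its most different probe set. Ndrg1 stood at -0.07 without suffix-marked probe sets, which left 9 genes above 0. The median of the other ligases, -0.0038 as reported, ran from -0.06 to 0.03 and so has no settled sign. None of the 23 probe sets had the finest value steps, so leaving those out changed only the centring. No paired analysis was possible because there is a single array of either genotype, and for the same reason no array could be left out.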
